A study of Mus musculus with 3 samples.

Results

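The genes described here are grouped as the inhibitory side of platelet tyrosine signalling, although Ptprj is known to act the opposite way in mouse platelets. They are the receptors Mpig6b, Pecam1, Treml1 and Ceacam1, which carry immunoreceptor tyrosine-based inhibitory motifs (ITIMs), and the tyrosine phosphatases Ptpn6, Ptpn11 and Ptprj. The lipid phosphatase Inpp5d and the adaptors Dok1 and Dok2 complete the set. All of these genes were chosen by name, and all 10 symbols had a row among the 9822 genes of the tables. The samples were 3 libraries of RNA from blood platelets, obtained from 20-week-old BALB/c males, all wild type for Nxf1, the receptor that exports mRNA from the nucleus. There was 1 group, with 26974129, 25189231 and 26111636 counts in replicates 1, 2 and 3. Each replicate is labelled as a batch of its own, so the sample and the batch cannot be told apart, and nothing in the labels states that each library came from a separate mouse. Errors and p-values therefore measure the spread between these libraries, which may be technical.

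Platelets are small anucleate cells, and their RNA is what megakaryocytes, the marrow cells that shed them, left in them. When platelets meet collagen or podoplanin, Src family kinases phosphorylate activating receptors and start a tyrosine kinase cascade. The same kinases phosphorylate the tyrosine of an ITIM, which then binds the SH2 domains of the phosphatases SHP-1 (Ptpn6) and SHP-2 (Ptpn11), and in some receptors of the inositol phosphatase SHIP1 (Inpp5d), and these remove phosphate from the activating chain or its lipid products. A second motif of similar form, the immunoreceptor tyrosine-based switch motif, often lies close behind the ITIM.

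The coding sequences of these motifs are shown because ITIM receptors are named for them, and because not every annotated transcript of a gene includes them. In the ITIM a codon for isoleucine, valine, leucine or serine stands 2 codons before the tyrosine codon, and one for isoleucine, valine or leucine 3 codons after it. In the switch motif the first of these codes for threonine and the last for valine or isoleucine. All matches of the 4 receptors within the last 100 codons of their longest complete coding transcript with the motif are given, 5′ to 3′, from GENCODE M21 transcripts (GRCm38), with the tyrosine codon in capitals.
Mpig6b ITIM: ctgcacTACgctgatctg
Mpig6b switch motif: actgtcTATgcggttgta
Pecam1 ITIM: gtagaaTACacagaagtg
Pecam1 switch motif: acggtgTACagtgagatc
Treml1 ITIM: gtgacaTATgccacagtt
Ceacam1 ITIM: gtcgcaTACactgtcctg
Ceacam1 switch motif: acagttTATtcagaagta
Counting exons in those transcripts, the Mpig6b pair lay in exon 6 at chr17:35064416-35064433 and chr17:35064338-35064355 (minus strand), with the tyrosines at codons 212 and 238 of 242. The Pecam1 pair was split between exon 14 (chr11:106679577-106679594) and exon 15 (chr11:106671758-106671775, minus strand), at codons 679 and 702 of 732. Treml1 had its ITIM in exon 6 (chr17:48366812-48366829, plus strand) at codon 291 of 322, and no switch motif by these letters. Ceacam1 had both in exon 9 (chr7:25463874-25463891 and chr7:25463793-25463810, minus strand), at codons 488 and 515 of 521. The ITIM was present in 1 of 2 complete coding transcripts of Mpig6b, 5 of 5 of Pecam1, 2 of 3 of Treml1 and 2 of 7 of Ceacam1. A read count per gene does not separate these transcripts, so the levels given here are of the genes and not of their ITIM-bearing forms. Outside the receptors, Ptpn6 and Ptpn11 each had 1 match to the ITIM letters within the last 100 codons. Dok2 had 1 match to the switch letters there, and Pecam1 had 2 further matches before that window. The letters alone therefore do not single out receptors.

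All 10 genes were present, and per gene length 3 of the 4 receptors, Treml1, Pecam1 and Mpig6b, stood highest among them. Every member reached 1 CPM (counts per 1000000 assigned reads) in all 3 libraries, against 77.7% of all genes in the tables. The members' median level was 230 CPM, against 3.86 CPM for all genes. Summed over the 10 genes, the share of all counts was 0.456%, 0.463% and 0.470% in the 3 libraries. The exact 95% Clopper-Pearson bounds were 0.454% and 0.459% for the first, 0.460% and 0.466% for the second, and 0.467% and 0.473% for the third, and cover counting error only. These shares rest on plain totals, in which red cell markers took 48710, 5215 and 6800 CPM in replicates 1, 2 and 3. Scaled on the bulk of genes (TMM), every member but Ptpn6 was in replicate 3 at 0.850 to 1.01 times the mean of the others. No rise toward replicate 3 is therefore read from the shares. In platelet RNA taken in bulk, fewer cells that hold a transcript and less of it per cell cannot be told apart. To compare different genes, levels are also given as RPKM, the CPM per 1000 bases of the deposited gene length.

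Treml1, which encodes TLT-1, a receptor stored in platelet alpha granules and brought to the surface on activation, was the highest of the set. Replicates 1, 2 and 3 gave 35246, 35465 and 35152 counts, or 1307, 1408 and 1346 CPM. By CPM the 3 libraries lay close together, and the gene was the 95th highest of 9822 by mean CPM. With TMM scaling Treml1 was at 1377, 1475 and 1220 CPM, with replicate 3 the lowest. Per gene length its level was 1110 ± 41.8 RPKM (SD, n = 3). Treml1 lies on chromosome 17 (48359916 to 48367176).

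Pecam1 encodes the adhesion receptor CD31, which binds to itself on neighbouring cells. Its levels were 1301, 1349 and 1336 CPM, a coefficient of variation of 1.88% (SD over the mean, n = 3). With TMM scaling, which sets the libraries level on the bulk of genes and lowers replicate 3, they were 1370, 1413 and 1211 CPM. By length it reached 402 ± 7.57 RPKM, below Treml1 in all 3 libraries. Pecam1 is also a gene of endothelium and leukocytes, whose listed markers are given further on.

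Mpig6b encodes G6b-B, a receptor for heparan sulfate that is restricted to megakaryocytes and platelets. It was at 527, 575 and 604 CPM (chromosome 17, 35062693 to 35066848), or 239 ± 16.4 RPKM (SD, n = 3). Replicate 3 was the highest and replicate 1 the lowest by CPM, 1.15 times apart, but with TMM scaling replicate 2 was the highest, at 602 CPM, and replicate 3 the lowest, at 547 CPM. Mpig6b overlaps Ly6g6c on the opposite strand by 797 bases in GENCODE M21. Ly6g6c was in the tables at 117 CPM. This and the other overlaps given here are between whole gene spans, introns included, and shared exons were not looked for. The library kit does not mark strand, so reads from any exon stretch that both genes share could not be told apart by strand. The ratio of Pecam1 to Mpig6b was 0.75 ± 0.08 on the log2 RPKM scale, and that of Treml1 to Mpig6b 2.22 ± 0.08 (SD, n = 3), with all 3 libraries on the same side in each.

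Ceacam1, an adhesion receptor of epithelium, leukocytes and platelets, was the lowest of the ITIM receptors. It stood at 121, 117 and 127 CPM, or 32.6 ± 1.33 RPKM (SD, n = 3). Pecam1 thus exceeded it 12.3 times by length, with a log2 ratio of Ceacam1 to Pecam1 of -3.62 ± 0.07. Its close relative Ceacam2 gave 138, 103 and 160 counts, and Ceacam1 was 24.4 times as high by length (log2 ratio 4.61 ± 0.23). Reads from stretches that both genes share could have been divided or lost, so this ratio is uncertain. Ceacam1 (chromosome 7, 25461702 to 25477647) is also overlapped over 15897 bases by an antisense gene, 4732471J01Rik, which had no row and was not analysed here.

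**Figure D1:**
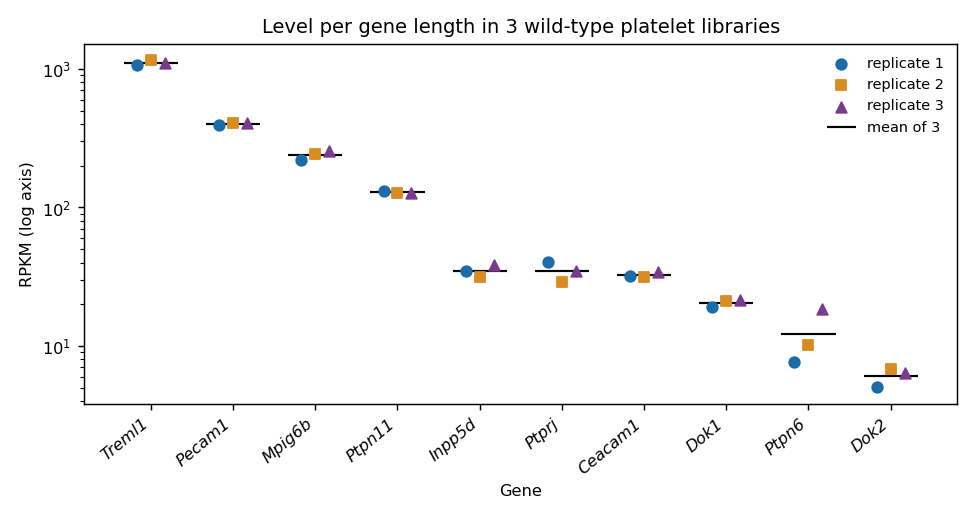
RPKM of the 10 genes (log axis) in replicates 1, 2 and 3, with the mean of 3 as a bar; genes run left to right by mean. Treml1 is highest at 1110 RPKM and Dok2 lowest at 6.05 RPKM, and Ptpn6 is the gene whose 3 libraries lie farthest apart.

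Among the phosphatases that ITIMs recruit, SHP-2 RNA was far above SHP-1 RNA. Ptpn11, the gene of SHP-2, which is widely expressed, was at 740, 710 and 715 CPM in replicates 1, 2 and 3, or 129 ± 2.81 RPKM (SD, n = 3). Ptpn6, the gene of SHP-1, which is mainly a phosphatase of blood cells, gave 501, 612 and 1168 counts, or 18.6, 24.3 and 44.7 CPM. The Ptpn6 values do not come near those of Ptpn11 in any library, and replicate 3 is clearly the highest for Ptpn6. Scaled to length, the log2 ratio of Ptpn6 to Ptpn11 was -4.09, -3.65 and -2.78 in the 3 libraries, a mean of -3.50 ± 0.67 (SD, n = 3). Ptpn11 was thus 11.3 times as high as Ptpn6. Ptpn6 is overlapped over 5873 bases by an antisense gene, Gm20531, and Ptpn11 over 3260 bases by Gm42930 on the same strand. Neither overlapping gene had a row, and their part in these levels was not tested. Ratios carry no test, since the smallest p of an exact two-sided sign-flip test is 0.25 with 3 libraries.

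Inpp5d, the gene of SHIP1, which removes the 5-phosphate from the lipid product of PI3-kinase, was at 172, 155 and 191 CPM, or 35.0 ± 3.62 RPKM (SD, n = 3). By length it was 14.8 times as high as its relative Inppl1, the gene of SHIP2 (log2 ratio 3.88 ± 0.09). Of the 13 other genes listed as inositol phosphatases, all 13 had a row and 10 passed the 1 CPM minimum throughout. The highest of these were Inpp5a at 20.5 RPKM, Inpp5b at 10.1 RPKM and Inpp5k at 9.64 RPKM, all below Inpp5d.

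Ptprj encodes the transmembrane phosphatase CD148, which in mouse platelets is known to keep Src family kinases active, so its role runs opposite to that of an ITIM phosphatase. Its counts were 9010, 6052 and 7478, or 334, 240 and 286 CPM, with replicate 1 the highest and replicate 2 the lowest. By length it reached 34.8 ± 5.68 RPKM (SD, n = 3). The phosphatase CD45 (Ptprc), which has a like role in leukocytes, was at 8.64, 7.11 and 11.5 CPM. Ptprj was 21.7 times as high as Ptprc by length (log2 ratio 4.44 ± 0.33). An antisense gene, 4933423P22Rik, overlaps Ptprj over 9190 bases, had no row and was not analysed here.

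The Dok adaptors, which bind Ras GTPase-activating protein and SHIP1 and damp signalling, were the lowest part of the set besides Ptpn6. Dok1 was at 34.6, 38.4 and 38.5 CPM and Dok2 at 8.64, 11.6 and 10.9 CPM. Per length they stood at 20.6 ± 1.23 and 6.05 ± 0.91 RPKM (SD, n = 3), a log2 ratio of Dok1 to Dok2 of 1.77 ± 0.14 with Dok1 higher in all 3 libraries. Dok3, a family member known from B cells and macrophages, gave 135, 134 and 260 counts, the most in replicate 3. Its log2 ratio to Dok2 was -0.63, -0.97 and 0.02, so the order of Dok3 and Dok2 was not the same in every library. Dok4, Dok5, Dok6 and Dok7 had no row and were not analysed here. Dok2 shares 593 bases with Xpo7 on the opposite strand, a gene at 5.01 CPM.

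By RPKM the order was Treml1, Pecam1, Mpig6b, Ptpn11, Inpp5d, Ptprj, Ceacam1, Dok1, Ptpn6 and Dok2. Neighbours in this order did not overlap between libraries, except that Inpp5d (35.0 RPKM), Ptprj (34.8 RPKM) and Ceacam1 (32.6 RPKM) overlapped and are not distinguished. Reads alone gave another order. By CPM Ptpn11 came before Mpig6b and Ptprj before Inpp5d (the gene lengths of Ptpn11 and Ptprj are 5611 and 8253 bases), and Treml1 and Pecam1 overlapped between libraries.

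In the list of other inhibitory and contact receptors, only Esam reached the level of the ITIM receptors described here. Of 26 such genes 13 had a row and 8 reached the 1 CPM minimum throughout, with a median of 1.69 CPM. The highest was Esam at 222 ± 6.35 RPKM (SD, n = 3), a contact receptor of the JAM type that is not known for an ITIM. Its mean lay below those of Treml1, Pecam1 and Mpig6b and above that of Ceacam1, but its libraries overlapped those of Mpig6b. Next came Cd72 at 1.65 RPKM and Cd22 at 1.52 RPKM, both inhibitory receptors of B cells, well below Ceacam1. Of 21 other tyrosine phosphatase genes and their regulators, 16 had a row and all 16 reached that minimum. Ptpn18, a phosphatase of the PEST group, was at 1020 ± 57.9 RPKM, above Ptpn11, and Ptpn12 followed at 164 ± 4.88 RPKM. Ptpn1, the gene of PTP1B, was at 68.7 ± 8.87 RPKM, below Ptpn11 and above Ptpn6.

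The kinases that phosphorylate ITIMs were led by Lyn at 206 ± 2.31 RPKM (SD, n = 3), followed by Fyn at 38.6 RPKM. Csk, which shuts Src kinases off and so opposes Ptprj, was at 19.6 ± 4.26 RPKM, and Src itself was at 7.95 RPKM. The log2 ratio of Csk to Src was 1.29 ± 0.20. This list had 11 of its 12 genes in the data and 8 at the minimum or above. Rasa3, a GTPase-activating protein for Rap1 and Ras, led the Dok and Ras list at 184 ± 5.92 RPKM, ahead of Crkl at 6.12 RPKM and Crk at 4.59 RPKM, and all 9 genes of that list in the tables, of 13, passed.

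The genes of the activating collagen and podoplanin receptors stood near Mpig6b or above it. Clec1b, the podoplanin receptor, was at 2283 ± 62.6 RPKM, the collagen receptor Gp6 at 296 ± 12.3 RPKM and its partner chain Fcer1g at 212 ± 17.8 RPKM (SD, n = 3). Mpig6b lay just below Gp6 per length, at a log2 ratio of -0.31 ± 0.04 in which all 3 libraries were below 0. By reads Mpig6b lay above Gp6 (0.74 ± 0.04), so this order depends on dividing by gene length. All 9 genes of the activating list reached the minimum. In a list of adaptors and regulators of tyrosine signalling, which also holds Fcer1g, 12 of 13 genes were in the tables and all 12 passed. Fcer1g led this list, followed by Lat at 121 RPKM and Sh2b3 at 51.8 RPKM. Of 10 ligand genes only 4 were in the tables and 2 passed: Cd47 at 287 ± 5.85 RPKM and Thbs1 at 97.8 ± 17.1 RPKM. Sparc, the next of them per length, was at 0.240 RPKM.

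**Figure D2:**
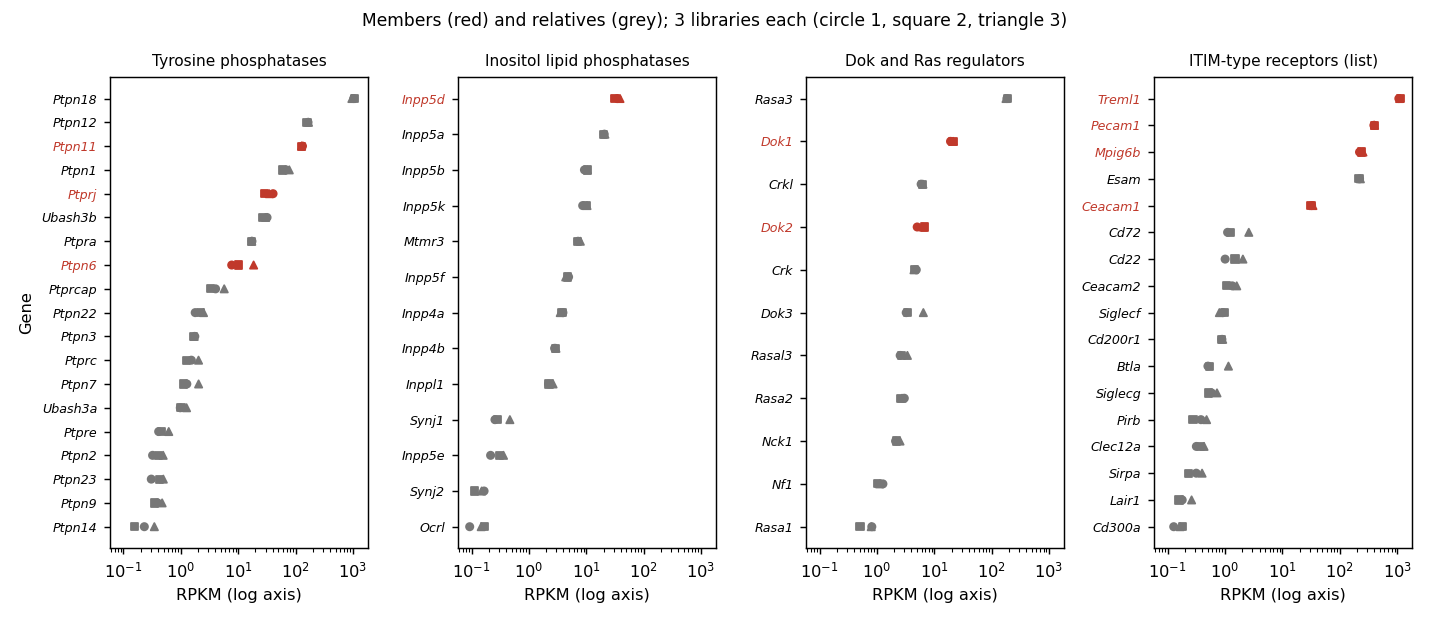
RPKM (log axis) in replicates 1, 2 and 3 of the members (red) and of the listed relatives shown (grey), in 4 panels. Treml1, Pecam1 and Mpig6b head the receptor panel and Inpp5d heads the panel titled inositol lipid phosphatases, whereas Ptpn6 stands eighth of the tyrosine phosphatases and their regulators. Not every gene of the panel that Inpp5d heads acts on lipids.

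By CPM the libraries agreed closely for most members. In 9 of the 10 genes the highest library was at most 1.5 times the lowest, against 66.4% of the 8289 genes that averaged at least 1 CPM. The exception was Ptpn6, at 2.41 times. Across all genes with that mean, edgeR's quasi-likelihood dispersion was set against the trend for genes of the same level, and 22 of 8289 genes, 0.265%, varied beyond it at a Benjamini-Hochberg adjusted p under 0.05. The count of members called was 0 of 10 by edgeR. At an unadjusted p under 0.05 there were 2, Ptpn6 and Ptprj, against 4.72% of all genes, and DESeq2 marked 1 member, Ptpn6, as a dispersion outlier, against 0.591% of genes. For Ptpn6 the dispersion was 12.4 times the trend (unadjusted p = 0.000981, adjusted p = 0.260, edgeR), with adjusted p values from 0.0577 to 0.996 over 9 other settings. For Ptprj it was 3.86 times the trend (unadjusted p = 0.0487, adjusted p = 0.990, edgeR; 0.390 to 0.998 over the other settings). The remaining 8 members had dispersions between 0.264 and 1.34 times the trend. The median ratio to the trend was 0.660 for the members and 0.740 for all genes tested. The share within 1.5 times is not matched for level, since the members' median was 230 CPM against 3.86 CPM for all genes in the tables.

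**Figure D3:**
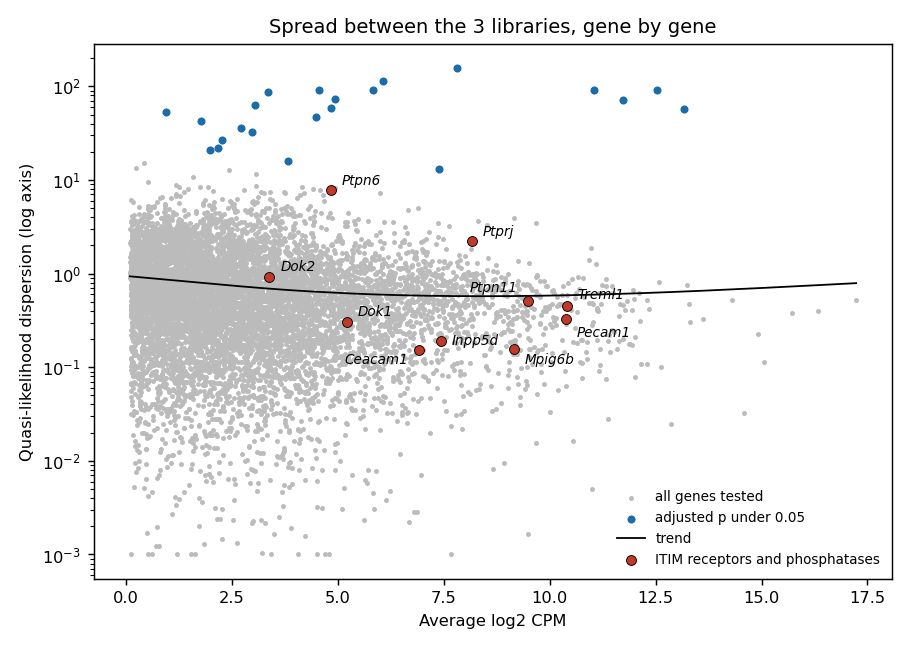
Quasi-likelihood dispersion between the 3 libraries (log axis; values below 0.001 are drawn at 0.001) against average log2 CPM for 8289 genes, with the trend as a line, the 22 genes with an adjusted p under 0.05 in blue and the members in red. Ptpn6 is the member highest above the trend, and none of the members is among the blue points.

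The variation of Ptpn6 lay in replicate 3, where it was 2.09 times the mean of the other two libraries by CPM. Most genes were somewhat higher there: the median gene was shifted by 0.24 on the log2 scale, and 69.1% of those 8289 genes were highest in replicate 3, as were 5 of the 10 members. With TMM scaling Ptpn6 was still at 19.6, 25.5 and 40.5 CPM, or 1.80 times, whereas each of the other 9 members was between 0.850 and 1.01 times. Without replicate 3 the mean of Ptpn6 was 21.4 CPM, against 29.2 CPM with all 3 libraries.

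Markers of B cells and of T cells were also higher in replicate 3. All 7 of the 7 listed B cell genes were in the tables, none with a count of 0, and all were highest in replicate 3; Cd22 and Blk, 2 of them, also stand in the receptor and kinase lists. Their summed level was 48.4, 52.9 and 94.3 CPM in replicates 1, 2 and 3. Cd79a and Cd79b, the chains of the B cell receptor, were at 11.7 ± 4.12 and 9.02 ± 4.68 RPKM (SD, n = 3), near the 12.1 ± 5.71 RPKM of Ptpn6, and Pax5 followed at 4.75 RPKM. With TMM scaling these 7 genes were 1.34 to 1.99 times as high in replicate 3 as the mean of the others. The 6 T cell markers in the tables were all highest in replicate 3 too, at 1.13 to 1.85 times with TMM scaling. Only 3 of these 6 reached 1 CPM in all 3 libraries, so their counts were low. By edgeR, 0 of 7 B cell markers and 0 of 5 T cell markers tested had an adjusted p under 0.05. Neutrophil markers ran from 0.942 to 1.35 times on that scale, and monocyte and macrophage markers from 0.634 to 1.32 times. The part of B cell, T cell or other leukocyte RNA in the Ptpn6 level was not tested.

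**Figure D4:**
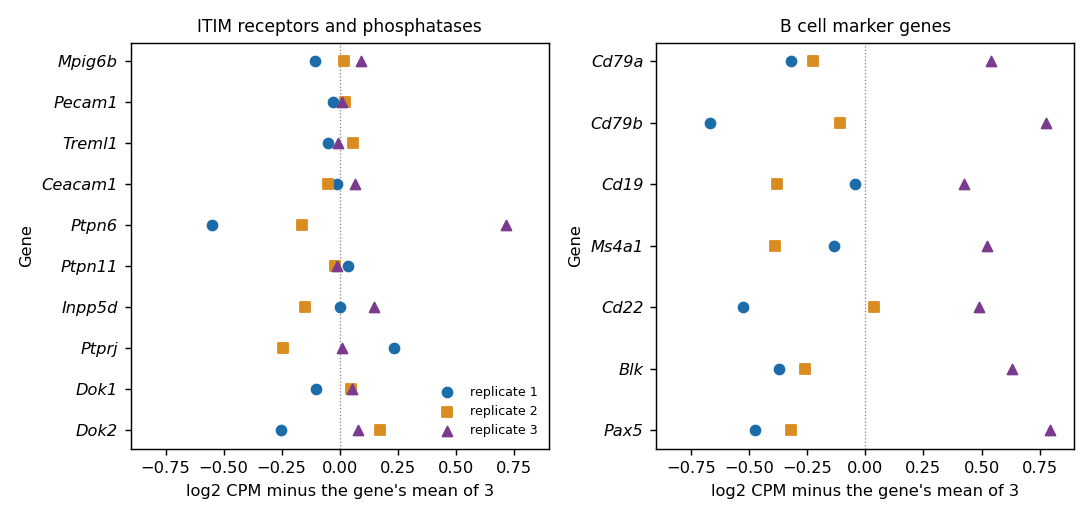
Log2 CPM of each library minus the gene's mean over 3 libraries, for the 10 members and for 7 B cell marker genes; symbols mark replicates 1, 2 and 3. Replicate 3 lies farthest right for Ptpn6, at 0.71, and for all 7 B cell genes, and the values of the other members lie between -0.25 and 0.23.

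Summed levels were also taken for other blood cells and for endothelium, and the leading genes of each list are given per length. T cell markers, of which 6 of 7 were in the tables, summed to 16.8, 18.5 and 28.2 CPM and were led by Lck, Cd3d and Cd28, while Cd3e had no row and was not analysed here. Neutrophil markers, 4 of 6, summed to 12.2, 17.7 and 21.3 CPM, led by S100a9, S100a8 and Retnlg. Monocyte and macrophage markers, 7 of 7, summed to 1307, 1530 and 1385 CPM, nearly all of it Lyz2, and to 21.0, 14.7 and 24.0 CPM without that gene, with Ctss and Ly6c2 the next highest per length. Red cell markers, 7 of 8, were highest in replicate 1, at 48710 CPM against 5215 and 6800 CPM, led by Hba-a1, Hbb-b1 and Hba-a2. The endothelial list, 6 of 8, summed to 2514, 2643 and 3110 CPM, nearly all from Vwf and Aqp1, with Plvap the next highest per length. Vwf is also a gene of platelets. Platelet markers, 6 of 6, summed to 30717, 32442 and 32810 CPM, led by Pf4, Ppbp and Gp9. No listed marker in the tables was at a count of 0. The part of these cells in the levels of Pecam1, Inpp5d, Dok1, Dok2 and Ceacam1, which leukocytes or endothelium also express, was not tested. Nor was it tested for any other member.

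For each member, the gene outside the set with the closest values was taken as the one with the smallest root mean square difference of log2 CPM over the 3 libraries, among 9628 genes. With 3 libraries this likeness is mostly one of level. For the receptors these were Tmem40 for Treml1 (a difference of 0.02), Odc1 for Pecam1 (0.04), Myct1 for Mpig6b (0.05) and Crebrf for Ceacam1 (0.03). For the phosphatases they were Epb41 for Ptpn11 (0.03), Add1 for Inpp5d (0.04), Arpc1a for Ptprj (0.10) and, for Ptpn6, Pou2af1 (0.10), a transcriptional coactivator known from B cells, at 20.1, 24.8 and 48.4 CPM. For the adaptors they were Trem1 for Dok1 (0.03) and Cby1 for Dok2 (0.05).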

How the data were processed

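Libraries were made from Norgen-purified platelet RNA with the Illumina TruSeq RNA v2 kit, per the labels' protocols; this kit does not mark strand. Each deposited table lists, by Entrez gene, an unnormalized read count and the length of the gene model. CASAVA 1.8.2, Subread, featureCounts, edgeR 3.11.5 and build mm10 are named, per the submitters' processing notes. How they were set, which annotation was used and whether counting used strand is not given in the sources used here. Genes had been filtered before deposit, since the lowest reached 0.238 CPM in its best library. A count of 0 allows up to 3 counts, which is 0.111, 0.119 and 0.115 CPM in replicates 1, 2 and 3.

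Symbols came from RefSeq for GRCm38.p6 (9636 genes) and GENCODE M21, which gave 9638 of 9822 in all. Coordinates of genes are from RefSeq for GRCm38, the assembly of mm10, and those of exons and overlaps from GENCODE M21. Overlaps were taken between whole gene spans, introns included.

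CPM used the plain total of counts. The spread test used edgeR 4.0.16 (limma 3.58.1, R 4.3.3), with an intercept, TMM factors of 0.949, 0.955 and 1.10 from all genes, and genes averaging at least 1 CPM: the quasi-likelihood dispersion (2 residual degrees of freedom) was compared with its trend by an upper-tail F test, with Benjamini-Hochberg adjustment over 8289 genes. DESeq2 1.42.0 was an alternative. Ratios used a prior count of 2. On simulated data with 50 genes per fold changed in 1 library of 3, among 8289 genes, the test found 0 at 2-fold, 27 at 4-fold, 48 at 8-fold and 50 at 16-fold, with 0 false calls. Every simulated gene had the trended dispersion of its level, without variation between genes, so recovery and false calls may differ in the data. Python 3.11.15, NumPy 2.4.6, pandas 2.3.3, SciPy 1.17.1 and matplotlib 3.10.9 did the rest.

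The members, the 15 lists (162 other symbols, 126 in the tables) and the tests were chosen with earlier results of these data known. Named genes are the members, the genes of 11 pairs, the 3 highest of each list by RPKM, and the nearest gene in level to each member. Among listed genes, only red cell genes had an adjusted p under 0.05. The genes overlapping members were added after their values were seen. One listed gene is counted in its list but not reported here.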

Additional observations from a re-analysis of the deposited data

How the results depend on the processing

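All 10 members were detected at minimums of 0.5 and 5 CPM, at 1 RPKM, by the mean and with each replicate left out. The count of members with spread between libraries was 0 by edgeR under DESeq2 size factors, plain totals, other filters, a robust prior, TMM factors taken after the filter (added after seeing the data) and each replicate left out, and 1 by DESeq2's dispersion outliers; the cause was not tested. Among all genes it was 22, against 11 with plain totals, 30 with DESeq2 size factors, 0 with the robust prior (where 0 members had an adjusted p under 0.05 and 1 an unadjusted one), 49 by DESeq2, and 2, 24 and 29 without replicates 1, 2 and 3. The members' share of counts was 0.463%, 0.816% with totals that leave out the 10 highest genes and 0.281% with counts divided by length. Their median level was 230 CPM, or 404 CPM on those smaller totals, and 218 to 246 CPM with a replicate left out. Without division by length, the log2 ratio of Mpig6b to Gp6 was 0.74, against -0.31 by length, and others moved by construction: Ptpn6 to Ptpn11 -4.72, Treml1 to Mpig6b 1.25, Pecam1 to Mpig6b 1.23, Ceacam1 to Pecam1 -3.45, Ptprj to Ptprc 4.98 and Csk to Src 0.52. With each replicate left out, the ratio of Ptpn6 to Ptpn11 ran from -3.87 to -3.21. No paired analysis was possible because the series has 1 group. Depth did not limit the members, the lowest count being 233 (Dok2, replicate 1), whereas 3 libraries limit the test of spread.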
